A study of Marchantia polymorpha with 12 samples.

Results

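LTR retrotransposons whose superfamily was not assigned in the Marchantia polymorpha annotation were followed in thalli that carry a mutation in a Polycomb gene. The group was taken from the feature names of the deposited tables: a copy belonged to it when its name ended in an unknown superfamily of class LTR and did not begin with the prefix of the structurally detected LTR elements. This gave 17373 of the 89262 transposable element (TE) copies, spread over 47 families, and every one of them carried a name of the form TE_homo followed by a number. The 12 libraries were made from polyadenylated RNA of 14-day thalli of the liverwort, with 3 biological replicates in each of 4 groups. In the first experimental set, Mpknox2-1 Mpez1-1 double mutants were set against Mpknox2-1 controls, and in the second, Mpknox2-1 Mpez1-2 double mutants were set against another group of Mpknox2-1 controls. All groups thus carried the Mpknox2-1 allele, no library without it was analysed here, and the 2 sets shared no control library. The set of libraries was labelled, but what else differed between the sets was not; the column headers of the second set carry the names Tak2 and G4, which the labels do not explain.

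LTR retrotransposons multiply through an RNA that is copied back into DNA, and each element consists of an internal part with the coding genes between a pair of long terminal repeats, where transcription starts and ends. Old or incomplete copies are often found only by similarity to a consensus, and a terminal repeat can stand alone after the internal part has been lost. In plants, such elements are kept quiet by DNA methylation and by marked histones. MpE(z)1 encodes the enzyme at the core of PRC2, a Polycomb complex that writes the repressive mark H3K27me3 on chromatin, and in Marchantia that mark is also found on transposons in heterochromatin. In the usual naming of such annotations, a family name ending in INT is an internal part and one ending in LTR is a terminal repeat. By these endings, 16 families with 7370 copies were internal parts, 14 families with 9159 copies were terminal repeats, and 17 families with 844 copies had no ending. Internal parts and terminal repeats of the same element carried no common number, so the families could not be joined into whole elements.

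Each library had 2 tables of read counts, one for each strand. The second table was read as the opposite strand because genes had few counts there; which strand is the coding strand of a TE copy was not given. Gene counts of the first tables ranged from 7019900 to 12098548 per library, and all TE copies together had between 29645 and 85937 counts in the first tables and between 366632 and 1028910 in the second. The LTR copies of unknown superfamily had 495 to 1907 counts per library in the first tables, which was 1.54% to 3.22% of the TE counts, and 19994 to 45608 in the second, 4.10% to 8.27% of the TE counts. The targeted gene MpE(z)1 had 120, 123 and 80 counts in Mpez1-1 double mutants, against 360, 304 and 248 in their controls, and 165, 217 and 204 counts in Mpez1-2 double mutants, against 392, 344 and 416 in theirs. The MpE(z)1 transcript fell in both sets (log2 fold change −1.06, adjusted p = 0.000606, and −0.78, adjusted p = 3.36e-05, edgeR). MpKNOX2, the gene mutated in every group, had 9, 6 and 15 counts in Mpez1-1 double mutants and 0, 0 and 2 in their controls, and 3, 8 and 4 in Mpez1-2 double mutants and 0 in all 3 of theirs, too few to test. Since whole thalli were used, fewer transcribing cells and less RNA per cell cannot be told apart in any value that follows.

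Most copies had no assigned counts at this depth. Of the 17373 copies, 2317 (13.3%) had at least 1 count in any library in the first tables and 2490 (14.3%) in the second, and 3919 had a count in either. The counts of the second tables summed to 369175 over the 12 libraries, against 12947 in the first, and 31 copies held 50% of them. A single internal-part family, TE_00000488_INT, held 95.8% of the second-table counts and 23.8% of the first-table counts. Most copies with appreciable counts were counted largely on one strand. Among the 400 copies with at least 50 counts over both tables, 373 had at least 90% of them in the second table, 14 had at least 90% in the first, and 13 lay between. Of 2178 such copies among all TE copies, these counts were 1585, 469 and 124. Of the 349 such copies of TE_00000488_INT, 340 leaned to the second table by that measure. Among the 51 such copies of other families, 33 leaned to the second table and 13 to the first. Copies of the Gypsy superfamily found by homology in the same tables had 3.49% of their counts in the second tables, against 96.6% for the LTR copies of unknown superfamily, 61.4% for those without TE_00000488_INT and 91.6% for all TE copies.

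The summed level of the group was higher in double mutants of both sets in the second tables. Levels are given as CPM, the count scaled to the TMM-adjusted size of the library's first table, as the mean ± SD of 3 libraries. In the second tables the copies summed to 4773 ± 153 CPM in Mpez1-1 double mutants and 3513 ± 196 CPM in their controls, a ratio of 1.36. The second set had 2822 ± 40.7 CPM in Mpez1-2 double mutants and 2007 ± 38.0 CPM in their controls, a ratio of 1.41. In neither set did any double mutant library overlap with a control library. In the first tables the sums were 178 ± 56.9 CPM in Mpez1-1 double mutants and 122 ± 25.4 CPM in their controls, with overlapping libraries. Second-set levels were 89.2 ± 2.34 CPM in Mpez1-2 double mutants and 68.8 ± 17.5 CPM in their controls, without overlap. With 3 libraries against 3 no exact test of a single sum can pass 0.05, so these are differences against the replicate spread only. When TE_00000488_INT was left out, a choice made after its share was seen, the second-table sums were 154 ± 8.26 CPM in Mpez1-1 double mutants and 118 ± 12.6 CPM in their controls, without overlap. For the second set they were then 151 ± 17.2 CPM in Mpez1-2 double mutants and 131 ± 39.1 CPM in their controls, and the groups overlapped. All TE copies together had second-table ratios of 1.27 in the first set and 1.10 in the second, with overlapping libraries in both. Their first-table ratios were 1.51 and 1.65, against 1.45 and 1.30 for the group. Copia copies found by homology had ratios of 1.20 and 1.25 in the second tables, without overlap, and 1.88 and 7.32 in the first. Gypsy copies had 1.09 and 0.949 in the second tables and 1.33 and 1.16 in the first. Structurally detected LTR copies had 0.953 and 0.995 in the second tables and 1.34 and 1.82 in the first.

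Counts per copy or per family were tested with edgeR's quasi-likelihood test, each double mutant against the controls of its own set, with Benjamini-Hochberg adjustment over all TE copies (or all TE families) tested in that table, and a copy is said to have risen or fallen when its adjusted p was under 0.05. Only copies with enough counts could be tested, which left 9 copies in each set in the first tables, and 294 and 297 in the second, holding 97.1% and 95.7% of the group's second-table counts. A copy enters the test when either genotype gives it enough counts, so these are not a sample of all copies. In the second tables of the first set, 104 copies rose, 21 fell and 169 did not pass. The share that rose was 35.4%, against 41.4% of all TE copies tested there, of which 11.3% fell. The median log2 fold change was 0.33 for the group and 0.57 for all TE copies. In the second set, 112 copies rose, 5 fell and 180 did not pass, a share of 37.7% that rose against 41.7% of all TE copies, of which 4.15% fell, with medians of 0.46 and 0.50. The split in the first set moved with the scaling: with library sizes and factors from the second tables themselves it was 83 higher and 35 lower, and in the second set 95 higher and 11 lower. That scaling lowered the median of all TE copies to 0.42 and 0.33. On the first strand, 6 of 9 copies rose in the first set, where 54.8% of all TE copies rose and 6.37% fell. In the second set 2 of 9 rose, where 47.3% of all TE copies rose and 2.86% fell, and no copy of the group fell in either (edgeR; 6 and 3 of 9 had an unadjusted p under 0.05).

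The calls of the 2 sets were set side by side for the same copies. Of 260 copies tested in the second tables of both sets, 73 rose in both, which was 70.2% of the 104 that rose in the first set and 65.2% of the 112 that rose in the second. Of all TE copies, 313 rose in both sets there, which was 64.8% of the 483 that rose in the first set and 62.4% of the 502 that rose in the second. TE_homo_13831 and TE_homo_69521 fell in both sets, TE_homo_37289 and, named after its values were seen, TE_homo_76432 fell in the first and rose in the second, and none rose in the first and fell in the second. Of all TE copies there, 30 fell in both sets, 12 fell in the first and rose in the second, and 0 rose in the first and fell in the second. Of the 944 TE copies tested in both sets, 718 had log2 fold changes of the same sign. Within the group, the log2 fold changes had the same sign in 179 of the 260 copies. Their correlation across copies was 0.76 (Pearson) and 0.67 (Spearman), as a description over 260 copies of few families that share libraries and may share reads.

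**Figure D1:**
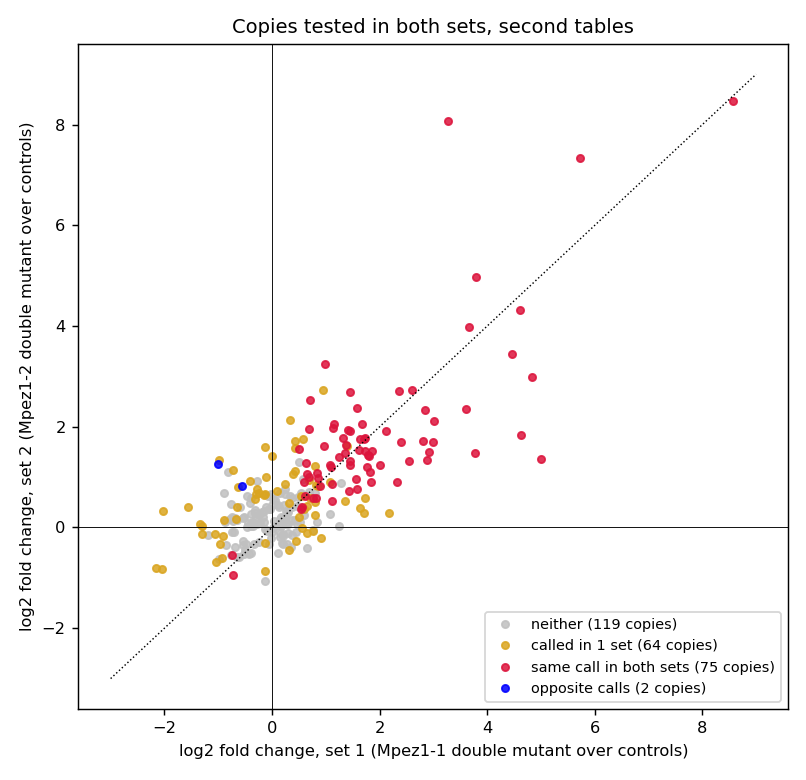
Log2 fold change of each copy in the second tables, Mpez1-1 double mutants over their controls on the x axis and Mpez1-2 double mutants over theirs on the y axis, for the 260 copies tested in both sets, with the line of equal values dotted and colours by the edgeR calls. The points called the same way in both sets lie mostly in the upper right quadrant, where 73 copies rose in both; values above 7 belong to copies with 0 to 2 control counts in that set, whose fitted fold depends on edgeR's prior count.

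TE_00000488_INT was the family that set the level of the group. Of its 1417 copies, 711 had a count in the second tables and 547 in the first. In the second tables it had 36347, 44261 and 32443 counts in Mpez1-1 double mutants and 36603, 40942 and 34667 in their controls. Its counts were 21480, 24535 and 24936 in Mpez1-2 double mutants, against 19623, 18594 and 19070 in their controls. Scaled for depth these were 4618 ± 161 CPM in Mpez1-1 double mutants and 3395 ± 191 CPM in their controls. The second set had 2670 ± 40.6 CPM in Mpez1-2 double mutants and 1876 ± 11 CPM in theirs, with no overlap in either set. The family rose in both, with a log2 fold change of 0.44 ± 0.14 (SE, adjusted p = 0.030, edgeR) in the first set and 0.51 ± 0.09 (adjusted p = 2.1e-05, edgeR) in the second. In the first set that call was lost with scaling by the second tables (log2 fold change 0.32, adjusted p = 0.137), and without replicate 1 or replicate 2 of the Mpez1-1 double mutants or of their controls, where adjusted p lay between 0.056 and 0.131 (edgeR). In the first tables the family was low, at 42.2 ± 15.6 CPM in Mpez1-1 double mutants and 28.6 ± 6.15 CPM in their controls, with overlap, and did not pass (0.57, adjusted p = 0.184, edgeR). It passed there without replicate 3 of the double mutants (0.82, adjusted p = 0.011, edgeR). At 24.5 ± 2.84 CPM in Mpez1-2 double mutants and 14.5 ± 2.34 CPM in their controls it rose in the first tables of the second set (0.76 ± 0.14, adjusted p = 0.000255, edgeR). Only 0.864% of the family's counts over both tables were in the first tables. Genes also had counts on their opposite strand, at 126357 to 225298 per library, beside the larger first-table gene counts given above. Whether the family's first-table counts come from RNA of its second strand was not tested.

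Within TE_00000488_INT, 99 of 284 tested copies rose in the first set, 20 fell and 165 did not pass, where 41.4% of all TE copies rose and 11.3% fell. In the second set 105 of 272 rose, 5 fell and 162 did not pass, where 41.7% of all TE copies rose and 4.15% fell. The 99 copies that rose summed to 2318 ± 164 CPM in Mpez1-1 double mutants and 1111 ± 94.1 CPM in their controls, which was 50.1% of the family's counts in the double mutants and 32.6% in the controls. The 165 copies that did not pass summed to 2111 ± 114 CPM in Mpez1-1 double mutants and 2018 ± 95.7 CPM in their controls. For the second set, the 105 copies that rose summed to 1447 ± 49.3 CPM in Mpez1-2 double mutants and 704 ± 12.9 CPM in their controls, and those that did not pass to 1016 ± 26.1 CPM in Mpez1-2 double mutants and 948 ± 6.88 CPM in their controls. These sums only describe how the calls divide the family, since the calls chose the copies. For the first set, the median log2 fold change was 0.32 for 98 copies below 3 CPM (mean of both groups), 0.34 for 102 copies between 3 and 10 CPM and 0.33 for 84 copies above. For the second set, it was 0.58, 0.44 and 0.45 in these classes, of 103, 111 and 58 copies. The share that rose grew with level, at 26.5%, 35.3% and 44.0% in these classes of the first set and 31.1%, 37.8% and 53.4% in the second. The medians did not grow with it. A change of the same size passes more easily at higher counts, so these shares do not measure the size of the response. The number of copies needed for 50% of the family's second-table counts was 23 in Mpez1-1 double mutants and 23 in their controls, and 38 in Mpez1-2 double mutants and 31 in theirs.

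**Figure D2:**
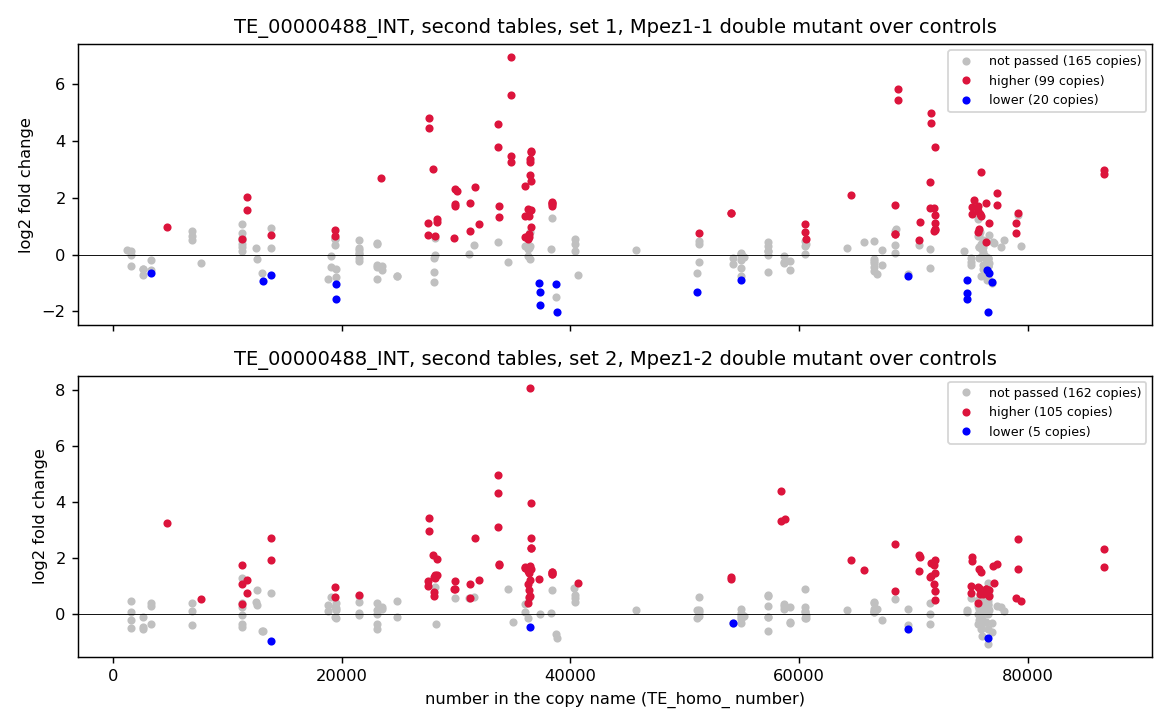
Log2 fold change of each tested TE_00000488_INT copy in the second tables against the number in its name, with the first set (Mpez1-1 double mutants over controls) above and the second (Mpez1-2 double mutants over controls) below, and colours by the edgeR call. Copies that rose and copies that did not pass stand side by side over most of the range of numbers, and the largest changes form short runs of close numbers; whether numbers follow position in the genome was not given.

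The most abundant copies of TE_00000488_INT changed little or modestly. TE_homo_78995, the copy with the most counts of the whole group in the second tables (8.10% of them), had 3465, 4422 and 3870 counts in Mpez1-1 double mutants and 3170, 3184 and 2990 in their controls. Mpez1-2 double mutants gave 1456, 1883 and 1654 counts and their controls 1222, 1262 and 1318. Its level was 484 ± 60.1 CPM in Mpez1-1 double mutants and 284 ± 26.4 CPM in their controls, and it rose in both sets (log2 fold change 0.77, adjusted p = 0.010, and 0.59, adjusted p = 0.000501, edgeR). TE_homo_71775 rose in both as well, with 115 ± 11.5 CPM in Mpez1-1 double mutants and 65.1 ± 7.38 CPM in their controls. Second-set levels were 97.4 ± 6.33 CPM in Mpez1-2 double mutants and 46.3 ± 4.52 CPM in theirs (log2 fold changes 0.83 and 1.07). The other 3 of the 5 most abundant copies were nearer to even. TE_homo_79363 had 154 ± 11.4 CPM in Mpez1-1 double mutants and 124 ± 10.2 CPM in their controls and did not pass (adjusted p = 0.127, edgeR), and rose in the second set by a log2 fold change of 0.48, a call lost without replicate 1 of the Mpez1-2 double mutants (0.38, adjusted p = 0.060, edgeR). TE_homo_57295 did not pass in either set (0.30 and 0.30). TE_homo_54224 fell in the second set, to 85.04 ± 0.313 CPM in Mpez1-2 double mutants, against 105 ± 4.78 CPM in their controls (log2 fold change −0.30, adjusted p = 0.036, edgeR), and did not pass in the first (−0.13). That call was lost without any single library of the second set (adjusted p 0.052 to 0.100, edgeR).

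Copies with large rises in both sets stood at different levels in controls. TE_homo_33652 had 159, 200 and 170 counts in Mpez1-1 double mutants and 12, 7 and 10 in their controls. For the second allele, 173, 189 and 185 counts stood in Mpez1-2 double mutants, against 14, 14 and 3 in their controls. In counts, every double mutant library was more than 10 times above every control library of its set. The log2 fold changes were 4.60 ± 0.28 (adjusted p = 1.8e-05) and 4.33 ± 0.32 (adjusted p = 1.3e-07, edgeR). TE_homo_33651, the next number and a copy of the same family, had 82, 124 and 99 counts in Mpez1-1 double mutants and 7, 9 and 13 in their controls. There were 80, 79 and 99 counts in Mpez1-2 double mutants and 4, 3 and 2 in their controls (log2 fold changes 3.80 and 4.98). TE_homo_36466 had 30, 51 and 34 counts in Mpez1-1 double mutants and 8, 7 and 1 in their controls. Within the second set, it had 33, 24 and 36 counts in Mpez1-2 double mutants and 0 in all 3 controls, at least 35.6-fold higher against a floor of 3 counts over the controls. TE_homo_36558 was higher in level, with 14.5 ± 2.83 CPM in Mpez1-1 double mutants and 2.39 ± 1.12 CPM in their controls. The second set had 8.14 ± 1.58 CPM in Mpez1-2 double mutants and 1.20 ± 0.669 CPM in theirs (log2 fold changes 2.61 and 2.73). The same pattern held for TE_homo_36569 (3.66 and 3.98), the neighbours TE_homo_27593 (4.47 and 3.45) and TE_homo_27594 (4.83 and 2.98), and TE_homo_31645 (2.37 and 2.72), which all rose in both sets without overlap between the groups. TE_homo_86619, named after its values were seen, showed a similar step at a higher level, with 167, 244 and 178 counts in Mpez1-1 double mutants and 41, 30 and 38 in their controls. Counts were 139, 146 and 145 in Mpez1-2 double mutants and 30, 31 and 37 in their controls (log2 fold changes 2.85 and 2.33).

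Some copies of TE_00000488_INT had appreciable counts in one of the double mutants. TE_homo_68654 had 80, 95 and 56 counts in Mpez1-1 double mutants and 0, 2 and 3 in their controls (log2 fold change 5.83 ± 0.56, adjusted p = 0.000105, edgeR). In the second set it had 2, 0 and 1 counts in Mpez1-2 double mutants and 2, 0 and 0 in their controls, too few to test. TE_homo_34831 had 11, 18 and 11 counts in Mpez1-1 double mutants and 0 in their 3 controls, at least 18.1-fold higher, and 0, 5 and 4 in Mpez1-2 double mutants and 1, 3 and 0 in their controls. The difference between the sets did not pass for either copy (adjusted p = 0.084 and 0.063, edgeR, fit of all 12 libraries). On the first strand, TE_homo_74806 of the same family had 21, 19 and 22 counts in Mpez1-1 double mutants and 0, 2 and 0 in their controls, a pooled ratio of 42.1 (exact 95% interval 11.2 to 355, counting error only). In Mpez1-2 double mutants it had 15, 12 and 20 counts, against 12, 7 and 3 in their controls (log2 fold change 1.28, adjusted p = 0.037, edgeR); that call was lost without replicate 1 or 3 of the Mpez1-2 double mutants or replicate 2 or 3 of their controls (adjusted p 0.082 to 0.144, edgeR).

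Few copies fell. TE_homo_69521 had 57, 55 and 48 counts in Mpez1-1 double mutants and 146, 126 and 97 in their controls. Its counts were 85, 114 and 130 in Mpez1-2 double mutants, against 171, 194 and 181 in their controls. It fell in both sets, by 0.75 (adjusted p = 0.014) and 0.54 (adjusted p = 0.013, edgeR) on the log2 scale, without overlap. TE_homo_13831 fell in both as well, to 5.03 ± 0.553 CPM in Mpez1-1 double mutants, against 8.34 ± 1.39 CPM in their controls, and to 4.83 ± 0.598 CPM in Mpez1-2 double mutants, against 9.25 ± 1.95 CPM in theirs. In the first set the call for TE_homo_69521 was lost without replicate 2 of the Mpez1-1 double mutants or replicate 1 of the controls (adjusted p 0.064 and 0.063, edgeR). For the second set, it was lost without replicate 1 of the Mpez1-2 double mutants or replicate 2 of the controls (0.070 and 0.0515, edgeR). The call for TE_homo_13831 in the first set was lost without replicate 2 or 3 of the double mutants or replicate 1 or 3 of the controls (adjusted p 0.052 to 0.104, edgeR). TE_homo_38802 had 2, 4 and 2 counts in Mpez1-1 double mutants and 16, 17 and 13 in their controls and fell in the first set (log2 fold change −2.04), while in the second it had 4, 13 and 5 counts in Mpez1-2 double mutants and 13, 18 and 14 in their controls and did not pass (adjusted p = 0.188, edgeR). Without replicate 2 of those double mutants it passed there (log2 fold change −1.50, adjusted p = 0.0496, edgeR). TE_homo_76472 fell in the first set (log2 fold change −2.03) although its libraries overlapped, with 4, 11 and 1 counts in Mpez1-1 double mutants and 13, 38 and 36 in their controls, and the call was lost without replicate 1 of the double mutants or replicate 2 or 3 of the controls (adjusted p 0.079 to 0.103, edgeR). TE_homo_76546 fell in the second set, to 3.20 ± 0.861 CPM in Mpez1-2 double mutants, against 5.86 ± 0.370 CPM in their controls, a call lost without replicate 1 or 3 of the double mutants (adjusted p 0.080 and 0.051, edgeR). TE_homo_36431, the last of the 5 copies that fell in the second set and named after its values were seen, had 179, 171 and 173 counts in Mpez1-2 double mutants and 293, 269 and 257 in their controls (−0.44, adjusted p = 0.017, edgeR). That call was lost without replicate 2 or 3 of the double mutants (0.074 in both) and with DESeq2 (0.053). Within the first set, this copy had 89.6 ± 4.19 CPM in Mpez1-1 double mutants and 72.0 ± 3.35 CPM in their controls and did not pass (0.32, adjusted p = 0.074, edgeR).

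**Figure D3:**
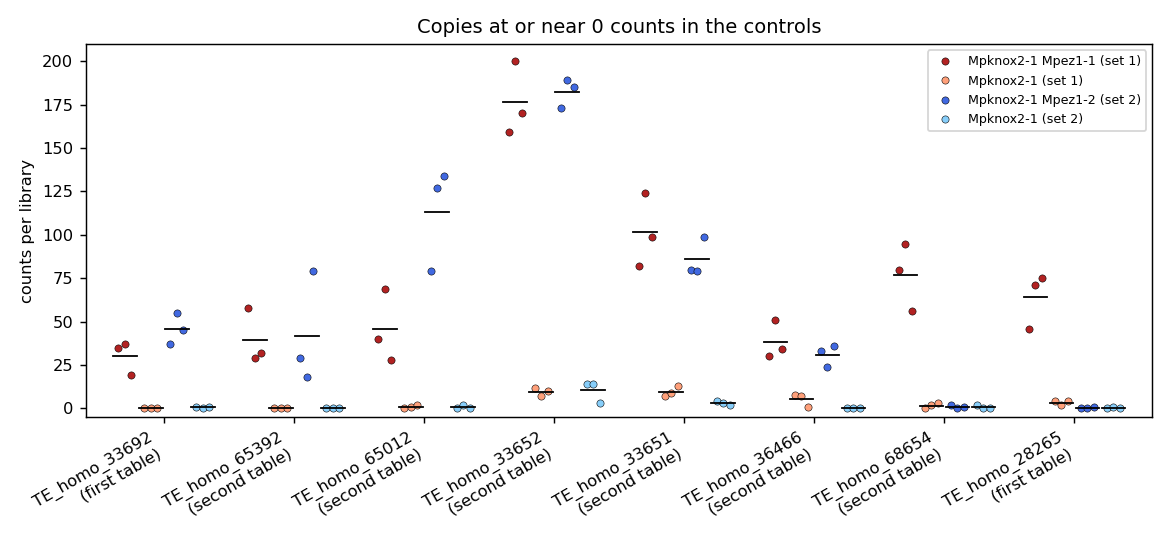
Counts per library of 8 copies that were at or near 0 in controls of at least 1 set, with points for the 3 libraries of each group, a bar for their mean, and the strand table under each name. TE_homo_33652 lay between 159 and 200 counts in every double mutant library and between 3 and 14 in every control library, while TE_homo_68654 and TE_homo_28265 had counts above 5 in Mpez1-1 double mutants only.

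Terminal-repeat families were low in level beside TE_00000488_INT in the second tables, as were all other families of the group. Summed by family over the whole group, 4 of 18 families tested rose in the second tables of the first set, where 29.9% of all TE families rose and 7.01% fell. In those of the second set 6 of 14 rose, where 34.8% of all TE families rose and 5.29% fell. On the first strand, 4 of 17 families rose in the first set, against 39.3% of all TE families, of which 2.37% fell, and 5 of 14 in the second, against 50.6% of all TE families, of which 3.61% fell. No family of the group fell in these 4 comparisons by edgeR (4 and 7 had an unadjusted p under 0.05 in either direction in the second tables, and 6 and 6 in the first). The largest rise among terminal repeats was in TE_00000542_LTR, a family of 334 copies with 96.0% of its counts in the second tables. It had 109, 116 and 75 counts in Mpez1-1 double mutants and 22, 19 and 17 in their controls. Mpez1-2 double mutants gave 134, 228 and 275 counts and their controls 18, 33 and 18 (log2 fold change 2.79 ± 0.25, adjusted p = 3.4e-05, and 3.38 ± 0.25, adjusted p = 1.6e-09, edgeR). A pair of copies gave most of it. TE_homo_65012 had 40, 69 and 28 counts in Mpez1-1 double mutants and 0, 1 and 2 in their controls, a pooled ratio of 62.0 (exact 95% interval 20.8 to 304). Within the second set, it had 79, 127 and 134 counts in Mpez1-2 double mutants and 0, 2 and 0 in their controls, a ratio of 195 (53.6 to 1620). TE_homo_65392 had 58, 29 and 32 counts in Mpez1-1 double mutants and 29, 18 and 79 in Mpez1-2 double mutants, against 0 in all 6 controls, at least 53.9-fold and 48.2-fold higher. It was the one copy of the group with 0 counts in all controls and at least 10 counts in every double mutant library of both sets.

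Copies of that kind were rare. On the second strand, 2 copies of the group had 0 counts in the 3 controls and at least 10 in each double mutant library in the first set (TE_homo_34831 and TE_homo_65392) and 2 in the second (TE_homo_36466 and TE_homo_65392), out of 30 and 34 among all TE copies. The first tables held 1 such copy in the first set, TE_homo_33692, of 22 among all TE copies, and none of 19 in the second set. No copy of the group showed the reverse in either set or table. TE_homo_33692 belongs to TE_00000306, a family of 36 copies with neither ending. It had 35, 37 and 19 counts in Mpez1-1 double mutants and 0 in their 3 controls, at least 41.2-fold higher. In the second set it had 37, 55 and 45 counts in Mpez1-2 double mutants and 1, 0 and 1 in their controls, a pooled ratio of 78.7 (exact 95% interval 21.4 to 656). It gave most of the first-table rise of its family, which was at 5.81 ± 1.2 CPM in Mpez1-1 double mutants and 0.567 ± 0.43 CPM in their controls. Second-set levels were 6.0 ± 1.0 CPM in Mpez1-2 double mutants and 0.198 ± 0.10 CPM in theirs (log2 fold change 3.32 ± 0.43 and 4.84 ± 0.41). On the second strand, the same family did not pass in the first set (−0.11) and was too low to test in the second.

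TE_00001156_LTR, a family of 1038 copies, was counted about evenly on both strands, with 52.6% of its counts in the second tables. On the second strand it had 185, 220 and 180 counts in Mpez1-1 double mutants and 118, 119 and 94 in their controls, and rose (log2 fold change 1.27 ± 0.15, adjusted p = 0.000177, edgeR). Its second-set rise was smaller, with 7.95 ± 1.5 CPM in Mpez1-2 double mutants and 5.27 ± 0.48 CPM in their controls (0.59, adjusted p = 0.032, edgeR). That call was lost with scaling by the second tables (0.44, adjusted p = 0.119), with DESeq2 (0.59, adjusted p = 0.082), without replicate 1 or 2 of the double mutants and without replicate 2 of the controls (adjusted p 0.072 to 0.224, edgeR). On the first strand, it rose in the second set (0.97 ± 0.18) and did not pass in the first (0.45, adjusted p = 0.086, edgeR), where it passed without replicate 3 of the double mutants or replicate 1 of the controls (both 0.048, edgeR). The copy TE_homo_71016, named after its values were seen, carried that change on the second strand. It had 110, 156 and 153 counts in Mpez1-1 double mutants and 27, 23 and 27 in their controls. For the second allele, 45, 52 and 45 counts stood in Mpez1-2 double mutants, against 20, 18 and 26 in their controls (log2 fold changes 2.88 and 1.35).

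TE_00001107_LTR behaved differently on the 2 strands and in the 2 sets. In the first tables it had 76, 120 and 109 counts in Mpez1-1 double mutants and 32, 38 and 25 in their controls (log2 fold change 2.13 ± 0.23, adjusted p = 9.8e-05, edgeR). For the second set, it had 6, 9 and 12 counts in Mpez1-2 double mutants and 10, 15 and 11 in their controls and did not pass (−0.22). One copy, TE_homo_28265, gave 46, 71 and 75 of these counts in Mpez1-1 double mutants and 4, 2 and 4 in their controls, and at most 1 count in any library of the second set. In the second tables the family had 18, 15 and 8 counts in Mpez1-1 double mutants and 19, 20 and 15 in their controls. There were 16, 24 and 29 counts in Mpez1-2 double mutants and 4, 9 and 5 in their controls. The family rose there in the second set and did not pass in the first (2.10 ± 0.44, adjusted p = 0.000190, and 0.04, edgeR). There the copy TE_homo_62891, named after its values were seen, had 11, 18 and 24 counts in Mpez1-2 double mutants and 0, 2 and 0 in their controls, a pooled ratio of 30.4 (exact 95% interval 8.02 to 258), and at most 1 count in any library of the first set. The difference between the sets passed for the family on both strands.

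TE_00000505_LTR is a terminal-repeat family of 15 copies. In the first tables it had 284, 317 and 167 counts in Mpez1-1 double mutants and 173, 165 and 104 in their controls, or 31.0 ± 6.4 CPM in Mpez1-1 double mutants and 13.2 ± 2.3 CPM in their controls, and rose (1.23 ± 0.19, adjusted p = 0.000713, edgeR). Within the second set, it had 132, 121 and 156 counts in Mpez1-2 double mutants and 184, 78 and 110 in their controls and did not pass (0.34, adjusted p = 0.349, edgeR). Without replicate 1 of those controls it passed (0.72, adjusted p = 0.002, edgeR). Its copy TE_homo_54449 had 190, 184 and 117 counts in Mpez1-1 double mutants and 69, 85 and 66 in their controls. Counts were 47, 37 and 87 in Mpez1-2 double mutants and 68, 43 and 75 in their controls. TE_homo_54449 rose in the first set (1.59, adjusted p = 6.48e-05, edgeR), while the second-set value was 0.07 (adjusted p = 0.884, edgeR). TE_homo_54447, named after its values were seen, had 31, 53 and 18 counts in Mpez1-1 double mutants and 15, 15 and 8 in their controls and rose (1.83, adjusted p = 0.0022, edgeR). It had 5, 14 and 12 counts in Mpez1-2 double mutants and 17, 9 and 7 in their controls and did not pass (0.10). The copy TE_homo_54673 did not pass in either set (0.25 and 0.39), and without replicate 1 of the second set's controls it passed there (1.14, adjusted p = 0.004, edgeR). On the second strand the family was at 0.659 to 1.89 CPM in all groups and rose in the second set (1.49, adjusted p = 0.026, edgeR) with overlapping libraries; without replicate 1 of the Mpez1-2 double mutants this was 1.02 (adjusted p = 0.267, edgeR), and it was also lost without replicate 3 of either group of that set (0.070 and 0.086) and with DESeq2 (0.053).

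The largest terminal-repeat family by copies, TE_00000846_LTR with 3263, had 12.2 ± 1.6 CPM in Mpez1-1 double mutants and 7.80 ± 0.44 CPM in their controls in the first tables and rose (0.65 ± 0.16, adjusted p = 0.0079, edgeR), and in the second set it had 3.76 ± 0.30 CPM in Mpez1-2 double mutants and 2.46 ± 0.26 CPM in their controls, without overlap, and did not pass (0.61, adjusted p = 0.057, edgeR). Its copy TE_homo_9280 had 60, 81 and 59 counts in Mpez1-1 double mutants and 43, 38 and 23 in their controls (1.39, adjusted p = 0.000582, edgeR), and 18, 20 and 20 in Mpez1-2 double mutants and 14, 14 and 12 in their controls (0.73, adjusted p = 0.086, edgeR). TE_00000537_LTR rose in the first tables of the second set, with 10, 15 and 15 counts in Mpez1-2 double mutants and 7, 4 and 7 in their controls (1.33, adjusted p = 0.017, edgeR). That call was lost with DESeq2 (adjusted p = 0.083) and without replicate 2 or 3 of the double mutants or replicate 2 of the controls (adjusted p 0.056 to 0.070, edgeR). For the first set, that family had 30, 34 and 13 counts in Mpez1-1 double mutants and 39, 41 and 26 in their controls and did not pass (−0.03).

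TE_00001159_LTR had lower mean levels in double mutants of both sets in the second tables, though neither difference passed. On the second strand, it had 44, 50 and 76 counts in Mpez1-1 double mutants and 98, 108 and 226 in their controls (−0.93, adjusted p = 0.160, edgeR), and 280, 409 and 501 in Mpez1-2 double mutants and 513, 748 and 311 in their controls (−0.22, adjusted p = 0.733, edgeR). Replicates spread widely: replicate 3 of the first set's controls had more than both other controls together, and without replicate 3 of the Mpez1-1 double mutants the family passed (−1.33, adjusted p = 0.019, edgeR). Without replicate 3 of the second set's controls it passed there (−0.49, adjusted p = 0.045), and without replicate 2 it changed sign (0.15). The level of this family was higher throughout the second set, at 44.3 ± 9.0 CPM in Mpez1-2 double mutants and 51.7 ± 22 CPM in their controls, than in the first, at 7.19 ± 3.1 CPM in Mpez1-1 double mutants and 13.7 ± 8.5 CPM in their controls. Its copy TE_homo_64427 had 5, 1 and 7 counts in Mpez1-1 double mutants and 12, 22 and 45 in their controls and fell (−2.16, adjusted p = 0.047, edgeR). That call was lost without replicate 1 or 2 of the double mutants (adjusted p 0.084 and 0.137, edgeR). In the second set it had 26, 55 and 49 counts in Mpez1-2 double mutants and 84, 127 and 48 in their controls and did not pass (−0.81, adjusted p = 0.076), and passed without replicate 3 of the controls (−1.10, adjusted p = 0.005, edgeR). The next number, TE_homo_64428, named after its values were seen, did not pass in either set (−1.20 and −0.16), and in the first it passed without replicate 3 of the Mpez1-1 double mutants (−2.12, adjusted p = 0.010, edgeR). In the first set 2 copies of the family were tested on that strand: 0 rose and 1 fell, where 41.4% of all TE copies rose and 11.3% fell. Of 9 tested in the second set, 1 rose and 0 fell, where 41.7% of all TE copies rose and 4.15% fell.

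Among the other internal parts, TE_00001286_INT stood second to TE_00000488_INT in counts. It had 510, 564 and 517 counts in Mpez1-1 double mutants and 570, 500 and 469 in their controls in the second tables, or 65.7 ± 6.5 CPM in Mpez1-1 double mutants and 46.7 ± 5.3 CPM in their controls, and rose (0.49 ± 0.14, adjusted p = 0.020, edgeR). Without replicate 2 of the controls the value was 0.40 (adjusted p = 0.091), without replicate 3 of the double mutants 0.41 (0.054), with DESeq2 0.49 (0.064), and 0.38 with scaling by the second tables (0.115). For the second set, it had 26.2 ± 1.5 CPM in Mpez1-2 double mutants and 22.1 ± 5.1 CPM in their controls and did not pass (0.25, adjusted p = 0.196), and without replicate 1 of the controls it passed (0.41, adjusted p = 0.022, edgeR). Although the family has 288 copies, nearly all of these counts belonged to TE_homo_44531, named after its values were seen, with 504, 562 and 511 in Mpez1-1 double mutants and 564, 496 and 460 in their controls. Its counts were 218, 221 and 239 in Mpez1-2 double mutants, against 280, 168 and 226 in their controls. Its call in the first set (0.50, adjusted p = 0.023, edgeR) was lost without replicate 2 or 3 of the double mutants, without replicate 2 of the controls (adjusted p 0.053 to 0.090) and with scaling by the second tables (0.39, adjusted p = 0.098).

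TE_00001002_INT rose in the second tables of the second set, with 82, 155 and 137 counts in Mpez1-2 double mutants and 73, 111 and 82 in their controls (0.68 ± 0.20, adjusted p = 0.0082, edgeR), and the call was lost without replicate 2 of the double mutants (0.50, adjusted p = 0.088, edgeR). In the first set it had 65, 44 and 50 counts in Mpez1-1 double mutants and 104, 34 and 40 in their controls and did not pass (0.29, adjusted p = 0.734, edgeR). One of its copies, TE_homo_31605, named after its values were seen, had 17, 11 and 23 counts in Mpez1-1 double mutants and 0, 4 and 1 in their controls and rose (3.73, adjusted p = 0.0038, edgeR), and had 7, 12 and 6 in Mpez1-2 double mutants and 0, 1 and 0 in their controls, a pooled ratio of 28.7 (exact 95% interval 4.70 to 1179). TE_00001128_INT rose in the first tables of the second set (0.92, adjusted p = 0.038, edgeR) with 14, 19 and 20 counts in Mpez1-2 double mutants and 11, 10 and 11 in their controls, and that call was lost without any single library (adjusted p 0.055 to 0.104, edgeR) and with DESeq2 (0.147). In TE_00001028_INT, TE_homo_35586, also named after its values were seen, had 15, 13 and 15 counts in Mpez1-2 double mutants and 0, 1 and 0 in their controls in the second tables, a pooled ratio of 49.4 (exact 95% interval 8.40 to 1996). In Mpez1-1 double mutants it had 7, 4 and 4 counts, against 3, 1 and 0 in their controls, too few to test.

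**Figure D4:**
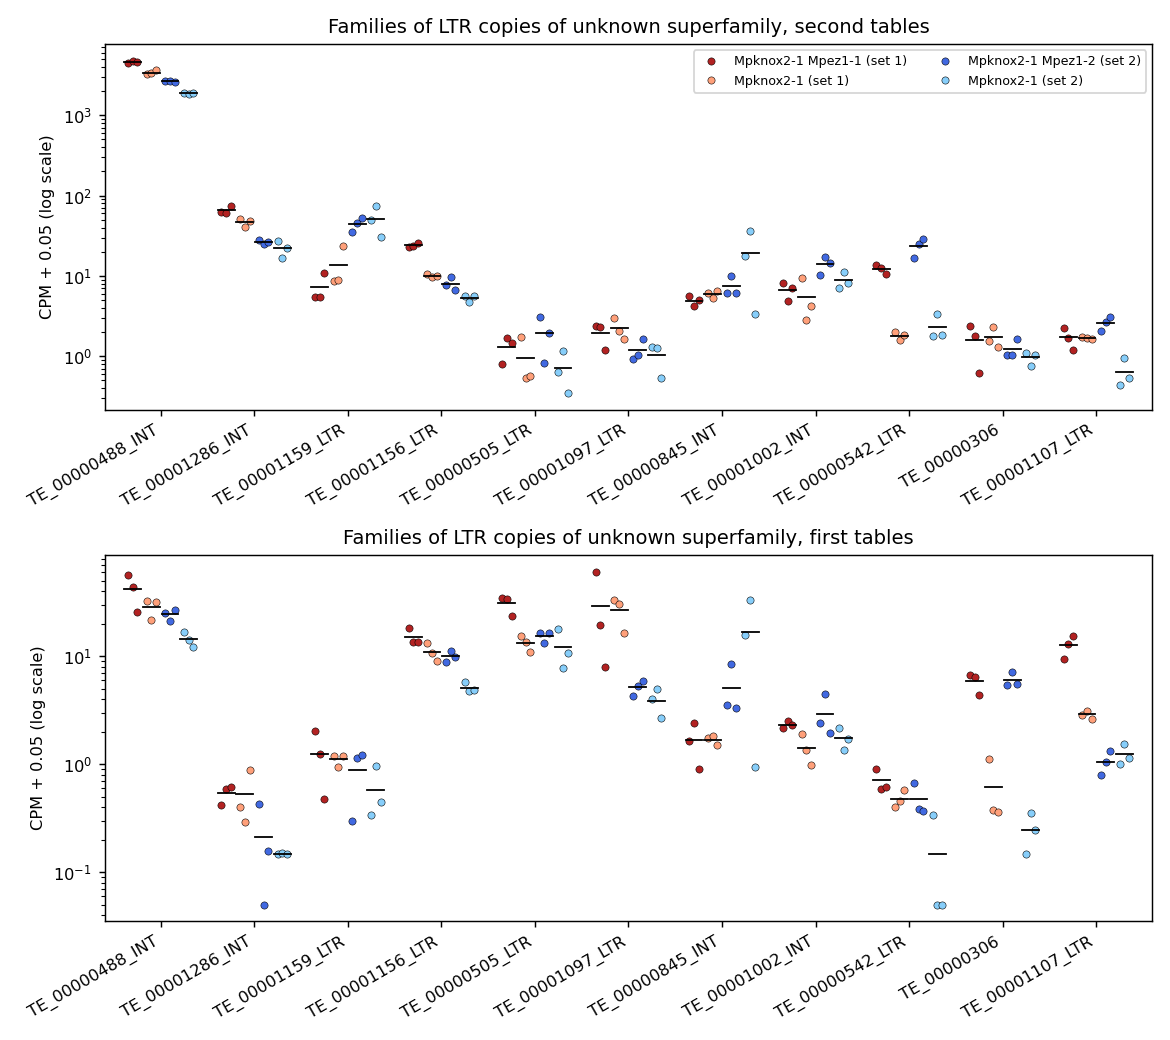
Level of 11 families in each library on a log scale, as CPM with 0.05 added, in the second tables above and the first tables below, with points for the 3 libraries of each group and a bar for their mean. TE_00000488_INT lies far above the other families in the second tables, TE_00000542_LTR there and TE_00000306 in the first tables separate double mutants from controls in both sets, and TE_00000845_INT has 1 control library of the second set far below the other 2.

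A few copies held large counts that followed single libraries or a set. TE_homo_52732 of TE_00000845_INT had 24, 71 and 26 counts in Mpez1-2 double mutants and 153, 324 and 0 in their controls in the first tables, and 23, 65 and 28 in Mpez1-2 double mutants and 158, 319 and 0 in their controls in the second. It had at most 2 counts in any library of the first set. It was thus counted almost equally on both strands. A share between 25% and 75% was found in 6 of the 400 copies with at least 50 counts, and in 54 of 2178 among all TE copies. It did not pass in the second tables (−1.85, adjusted p = 0.396, edgeR), and without replicate 3 of the controls, the library with 0 counts, it passed (−2.44, adjusted p = 0.0077, edgeR). TE_00000845_INT as a family did not pass in the second tables of that set either (−1.37, adjusted p = 0.336), and passed without that library (−1.87, adjusted p = 0.0066, edgeR). Its first-table value (−1.71, adjusted p = 0.319) also passed without it (adjusted p = 0.047, edgeR).

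TE_homo_13234 of TE_00001097_LTR, the copy with the most counts in the first tables (10.6%), had 439, 139 and 36 counts in Mpez1-1 double mutants and 297, 307 and 115 in their controls, and between 3 and 13 in every library of the second set. It did not pass in the first set (0.23, adjusted p = 0.829), and its sign turned to −1.04 without replicate 1 of the Mpez1-1 double mutants. Its family followed it (0.14, and −0.93 without that library). TE_homo_87193 of TE_00000885_INT, named after its values were seen, had 10, 10 and 5 counts in Mpez1-1 double mutants and 117, 13 and 3 in their controls, and 0 in all libraries of the second set. It did not pass (−1.94, adjusted p = 0.232, edgeR).

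**Figure D5:**
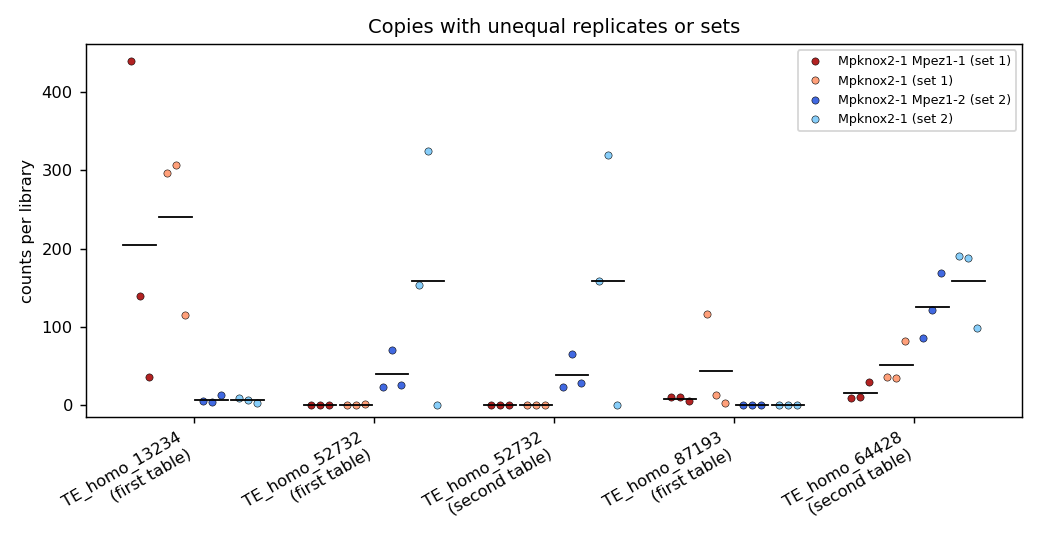
Counts per library of 4 copies whose replicates or sets were unequal, TE_homo_52732 on both strands, with points for the 3 libraries of each group and a bar for their mean. TE_homo_52732 had 0 counts in 1 control library of the second set and 153 to 324 in the other 2, and TE_homo_13234 ranged from 36 to 439 counts among Mpez1-1 double mutants and stayed at or below 13 in the second set.

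Copies with consecutive numbers were set side by side. Among tested copies of the second tables, 98 pairs in each set had consecutive numbers, and both members were of the same family in all of them. Of these pairs, 96 and 93 lay in TE_00000488_INT, which held 284 of 294 and 272 of 297 tested copies. Most pairs would thus be of that family in any order of the numbers. Within the first set, both members rose in 18 pairs, both fell in 4, neither passed in 52, and 1 of the 2 passed in 24. Within the second set, the counts were 21, 0, 55 and 22. No pair had 1 member that rose and 1 that fell in either set, and the median difference of log2 fold change within a pair was 0.28 and 0.32. TE_homo_33651 and TE_homo_33652, and TE_homo_27593 and TE_homo_27594, were such pairs. Pairs without consecutive numbers and pairs among all TE copies were not compared, so these counts do not show whether neighbours change together. Whether such pairs are pieces of a single insertion or share reads was not tested.

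The response differed between the sets for some copies. In a fit of all 12 libraries, 22 copies of the group had a larger and 14 a smaller log2 fold change in the second set than in the first in the second tables, 36 of 343 tested, where 14% of all TE copies passed in either direction. That count was 23 without replicate 2 of the Mpez1-1 double mutants, 20, 22 and 23 without replicates 1, 2 and 3 of the Mpez1-2 double mutants, and 12 with no filter on low counts. The larger and smaller changes made up 8.86% and 5.13% of all TE copies. On the first strand, 2 of 17 copies passed, TE_homo_54449 and TE_homo_74806, where 2.92% of all TE copies did (3 of 17 had an unadjusted p under 0.05). Among families, TE_00001107_LTR alone passed in each table, 1 of 18 in both, where 5.98% of all TE families passed in the first tables and 10.7% in the second. TE_homo_37289 of TE_00000488_INT moved in opposite directions. It had 52, 74 and 53 counts in Mpez1-1 double mutants and 146, 203 and 142 in their controls, and fell (−1.01, adjusted p = 0.00265, edgeR), and it had 55, 36 and 46 counts in Mpez1-2 double mutants and 25, 16 and 25 in their controls, and rose (1.26, adjusted p = 0.00371, edgeR). TE_homo_76432 of that family had 119, 124 and 77 counts in Mpez1-1 double mutants and 196, 231 and 202 in their controls and fell (−0.55, adjusted p = 0.031, edgeR). It had 103, 93 and 68 counts in Mpez1-2 double mutants and 43, 57 and 74 in their controls, with overlap, and rose (0.82, adjusted p = 0.017, edgeR). The first call was lost without replicate 2 or 3 of either group (adjusted p 0.068 to 0.089) and with DESeq2 (0.053). The second was lost without replicate 1 or 2 of the double mutants or replicate 1 of the controls (adjusted p up to 0.111) and with scaling by the second tables (0.055). TE_homo_70517 was at 22.9 ± 1.94 CPM in Mpez1-1 double mutants and 18.1 ± 3.21 CPM in their controls and did not pass (0.34), and rose to 6.04 ± 1.05 CPM in Mpez1-2 double mutants, against 1.38 ± 0.174 CPM in their controls (2.13, adjusted p = 3.47e-05, edgeR). TE_homo_29880 rose in both, more in the first, with 543, 703 and 535 counts in Mpez1-1 double mutants and 168, 175 and 139 in their controls. Mpez1-2 double mutants gave 193, 227 and 207 counts and their controls 145, 116 and 127 (2.32 and 0.90).

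Genes with symbols of known silencing factors were read from the first tables in the same libraries. The list was made by name, so it is not limited to genes that act on transposons. Of 27 such genes with a symbol in the reference table, 6 rose, none fell, 17 did not pass and 4 were too low to test in the first set, and 5 rose, 3 fell, 13 did not pass and 6 were too low in the second. Among all genes tested in the first tables, 26.5% rose and 24.1% fell in the first set, and 20.4% rose and 17.4% fell in the second. MpNRPD1, the largest subunit of RNA polymerase IV, which starts small RNA production at transposons in Arabidopsis, rose to 36.4 ± 1.79 CPM in Mpez1-1 double mutants, against 17.0 ± 0.680 CPM in their controls (1.10, adjusted p = 6.49e-05, edgeR), and did not pass in the second set (0.27). MpNRPE1b, a largest subunit of RNA polymerase V by name, had 22, 21 and 23 counts in Mpez1-1 double mutants and 2, 2 and 2 in their controls. For the second allele, 22, 39 and 28 counts stood in Mpez1-2 double mutants, against 2, 7 and 1 in their controls, and rose in both (3.82 and 3.30). MpDDM1, a chromatin remodeller that keeps transposons methylated in Arabidopsis, did not pass in the first set (−0.11) and fell in the second, to 7.35 ± 0.348 CPM in Mpez1-2 double mutants, against 10.2 ± 0.504 CPM in their controls (−0.48, adjusted p = 0.025, edgeR). MpMET, the maintenance DNA methyltransferase, did not pass in either set (0.385 and −0.49). The largest first-set rises of the list were in MpH2A.W.1, MpPIWIa and MpPIWIb. MpH2A.W.1 had 15, 13 and 15 counts in Mpez1-1 double mutants and 13, 16 and 14 in Mpez1-2 double mutants, against 0 in 6 controls. It rose in both sets. MpPIWIa (5.84) and MpPIWIb (5.55) rose in the first set and were too low to test in the second.

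Markers of other tissues were read in the same way, beside the same shares of all genes. Of 6 germ cell and gametangium markers, 3 rose, 1 fell, 1 did not pass and 1 was too low to test in the first set, and 1 rose, 1 fell, 2 did not pass and 2 were too low in the second. Their summed level was 55.0 to 70.0 CPM in Mpez1-1 double mutants and 66.3 to 68.6 CPM in their controls, and 105 to 122 CPM in Mpez1-2 double mutants and 128 to 130 CPM in theirs. Most of that sum was MpRKD, at 43.6 CPM in Mpez1-1 and 99.7 CPM in Mpez1-2 double mutants, which fell in both sets (−0.46 and −0.29). MpFGMYB rose in both (1.87 and 2.60). MpGCS1 rose in the first set (1.32) and did not pass in the second (0.03), and MpDUO1 did not pass in either (0.15 and −0.52). MpBNB, a regulator of germ cell formation, had 11, 19 and 16 counts in Mpez1-1 double mutants and 10, 14 and 4 in Mpez1-2 double mutants, against 0 in all 6 controls, while MpPRM, a protamine of sperm, had 2 counts in 1 library and 0 in the other 11. Of the sporophyte genes MpBELL1 and MpKNOX1, MpBELL1 rose in both sets (3.39 and 5.13), while MpKNOX1 was too low to test in either. MpKNOX1 had 1, 4 and 2 counts in Mpez1-1 double mutants, fewer than the 8, 7 and 8 in their controls. It had 11, 6 and 8 counts in Mpez1-2 double mutants and 7, 4 and 6 in theirs. The pair summed to 5.23 to 5.54 CPM in Mpez1-1 double mutants and 0.976 to 1.35 CPM in their controls. Second-set sums were 6.53 to 9.59 CPM in Mpez1-2 double mutants and 0.602 to 0.962 CPM in theirs. Most of the sums in double mutants was MpBELL1. The 4 vegetative thallus markers had counts in every library, and their sum was 264 to 523 CPM in Mpez1-1 double mutants and 268 to 288 CPM in their controls, and 598 to 715 CPM in Mpez1-2 double mutants and 358 to 409 CPM in theirs. Most of that sum was the photosynthesis gene MpRBCS, at 345 CPM in Mpez1-1 and 591 CPM in Mpez1-2 double mutants. MpRBCS did not pass in the first set (0.70) and rose in the second (1.01). MpGCAM1 rose in the first (1.15) and did not pass in the second (1.67). MpNOP1 did not pass in the first (−0.05) and fell in the second (−0.45), and MpRSL1 did not pass in either (−0.24 and −0.15). The part of tissue composition in the changes of the LTR copies was not tested.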

How the data were processed

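The submitters deposited raw read counts for genes and single TE copies, with 2 count tables for each of 12 libraries of a directional kit, per the labels' protocols. Per the submitters' processing notes, Trim Galore and STAR were used. The sources used here give no versions, no counting tool, no treatment of reads that match several copies and no genome build. Near-identical copies can share or split reads, so values of single copies are uncertain. No coordinates of the copies were used, so no sequences are shown.

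Both tables were scaled by the library sizes and TMM factors of the first tables, over genes and TE copies together, per set. edgeR 4.0.16 (R 4.3.3; quasi-likelihood, robust) fitted the 6 libraries of each set. Features passed filterByExpr at 10 counts and 15 in total. Differences between sets are the second minus the first and used all 12 libraries. DESeq2 1.42.0 was an alternative. The SE is the absolute log2 fold change divided by the square root of edgeR's F. Floors of 3 counts over a group and exact 95% intervals cover counting error only. The procedure was tested on simulated data. Replicates are biological per the labels. Replicate pairs differed beyond counting noise (chi-square/df between 2.76 and 32.4).

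The copies, gene lists and tests were chosen with earlier results of these data known. Named families had the most counts (8 families) or were among the 5 largest called changes in each direction per table and set. Named copies had the most counts (5 per table), were called alike in both sets (up to 10), were among the 3 largest called changes in each direction per set with at least 0.5 CPM, or had one of the 3 smallest adjusted p values for the difference between sets. Others are marked where first described as named after their values were seen.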

Additional observations from a re-analysis of the deposited data

Results flagged for a closer look

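The difference between the sets (log2 fold change of set 2 minus that of set 1, edgeR fit of all 12 libraries) passed for 2 copies in the first tables, 36 copies in the second, and 1 family in each table. TE_00001107_LTR differed by −2.40 in the first tables (SE 0.41, adjusted p = 0.0039, edgeR) and by 2.02 in the second (SE 0.57, adjusted p = 0.025, edgeR). The family's sum thus rose in the first tables in Mpez1-1 double mutants and in the second tables in Mpez1-2 double mutants. Different copies gave most of these rises, TE_homo_28265 in the first tables and TE_homo_62891 in the second. Which strand is the coding strand of either copy was not given. The second-table call was lost without replicate 2 of the Mpez1-1 double mutants (adjusted p = 0.065), without replicate 2 or 3 of the Mpez1-2 double mutants (0.058 and 0.071) and without replicate 1 or 3 of their controls (0.074 and 0.071, edgeR).

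In the first tables, TE_homo_54449 differed by −1.56 (adjusted p = 0.042) and TE_homo_74806 by −3.93 (adjusted p = 0.043, edgeR). Both calls were fragile: leaving out single libraries gave adjusted p values up to 0.111 for TE_homo_54449 and up to 0.123 for TE_homo_74806, and between 0 and 1 copies passed in these fits.

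In the second tables, TE_homo_37289, which fell in Mpez1-1 double mutants and rose in Mpez1-2 double mutants, differed by 2.23 (adjusted p = 0.00131). TE_homo_29880 differed by −1.47 (adjusted p = 0.000318) and TE_homo_70517 by 1.74 (adjusted p = 0.00143). TE_homo_36466 differed by 4.66 (adjusted p = 0.024), a fitted value against 0 counts in the second set's controls and no measure of fold, and it was lost without any single replicate of those controls (adjusted p 0.052 to 0.054). TE_homo_71016 differed by −1.57 (adjusted p = 0.012, edgeR). TE_homo_76432, which like TE_homo_37289 fell in the first set and rose in the second, differed by 1.32 (adjusted p = 0.018), lost without replicate 1 of the Mpez1-2 double mutants (0.051). TE_homo_36431 differed by −0.80 (adjusted p = 0.011, edgeR).

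The TE_00000488_INT copies TE_homo_71492 and TE_homo_71494, which are 2 numbers apart and were named after their values were seen, differed by −2.85 (adjusted p = 0.011) and −3.70 (adjusted p = 0.013, edgeR). TE_homo_71492 had 40, 61 and 35 counts in Mpez1-1 double mutants and 2, 4 and 1 in their controls, and 16, 16 and 22 in Mpez1-2 double mutants and 8, 6 and 3 in theirs. TE_homo_71494 had 43, 66 and 46 counts in Mpez1-1 double mutants and 2, 0 and 4 in their controls, and 21, 22 and 20 in Mpez1-2 double mutants and 12, 14 and 2 in theirs. Both rose in both sets, and the second-set call of TE_homo_71494 was lost without any 1 of the 3 Mpez1-2 double mutants or replicate 3 of the controls (adjusted p 0.055 to 0.089, edgeR). In each case the sets differ in allele, in experiment and in their controls, and these cannot be told apart.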

How the results depend on the processing

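Of the comparisons of called copies, called families and summed levels with each alternative, 160 stayed within 1.5 times the count (or 1 SD of the sum) and 36 did not. Among named copies and families past the threshold, 1095 of the alternative values kept the call and 135 lost it, and none changed sign. Without a filter on low counts, 19 copies passed in the first tables of set 1 (main 6) and 13 of set 2 (main 2), and 12 for the difference between sets in the second tables (main 36) and 0 families. A filter at 30 counts and 45 in total left 3 and 1 copies that passed in the first tables. DESeq2 called 1 copy and 3 families in the first tables of set 2 (main 5 families). With scaling by the second tables, 2 families passed in the second tables of set 1 (main 4). Without TE_00000488_INT, an alternative added after seeing the data, the log2 ratio of summed second-table levels in set 2 was 0.21 (main 0.49). Leaving out 1 library gave 2 to 6 copies in the first tables of set 2 (6 without control replicate 1), 2 to 4 families in the second tables of set 1 (2 without control replicate 2), 0 to 1 copies for the difference in the first tables, 20 to 39 in the second (20 without replicate 1 of the Mpez1-2 double mutants), and 0 to 1 families in the second.

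Replicate numbers did not pair the libraries: the correlation of same-numbered deviations was 0.034, −0.0073 and 0.081 in set 1 and 0.083, 0.053 and 0.081 in set 2, where every library did correlate best with its own number, a hint from the data only. With the replicate block, 1 copy passed in the first tables of set 2, 1 copy and 2 families for the difference in the first tables, and 20 copies for the difference in the second; the block gave 109 and 116 copies in the second tables of the 2 sets. It turned TE_homo_13234 to −0.13 and TE_00001097_LTR to −0.15 in the first tables of set 1.

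Signs that turned belonged to values that had not passed. In set 1, leaving out 1 library gave −1.04 to 0.69 for TE_homo_13234, −0.067 to 0.58 for TE_homo_54673, −0.41 to 0.28 for TE_00000845_INT (0.014 with RLE factors), −0.93 to 0.57 for TE_00001097_LTR, −0.32 to 0.56 for TE_00001159_LTR, −0.66 to 0.086 for TE_00001128_INT and −0.18 to 0.21 for TE_00000537_LTR in the first tables. In the second tables it gave −0.34 to 0.11 for TE_homo_76546, −0.22 to 0.23 for TE_00001107_LTR (−0.11 with scaling by the second tables), −0.36 to 0.088 for TE_00001097_LTR and −0.030 to 0.93 for TE_00001002_INT. In set 2 it gave −0.29 to 0.32 for TE_homo_54449 and −0.16 to 0.53 for TE_homo_54447 in the first tables, and in the second −0.41 to 0.0026 for TE_homo_64428, −0.21 to 0.64 for TE_homo_76472, −0.084 to 0.44 for TE_00001097_LTR and −0.49 to 0.15 for TE_00001159_LTR. The cause was not tested. In the first tables, 9 copies of 17373 could be tested per set.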
